A study of Homo sapiens with 6 samples.

Results

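Complement transcripts were examined in hepatocyte-like cells, as 35 named genes of the 60623 genes listed for each library. The genes were chosen by name, as components and regulators of the complement system, and all 35 were found once in every library. HFPO-TA, hexafluoropropylene oxide trimer acid, is a perfluorinated ether carboxylic acid used in place of older perfluoroalkyl surfactants. The cells were differentiated from H9, an established human embryonic stem cell line, and the labels call them hepatoblasts at day 19. There were 3 libraries of cells given HFPO-TA and 3 of cells given 0.1% DMSO, the vehicle. The labels give the HFPO-TA dose as 10 in a unit that could not be read with certainty. They do not state whether the HFPO-TA cells also received DMSO. Nor do they say that replicates were cultured separately. Each p-value is set against the spread between libraries of the same group, pooled over both groups and moderated across genes. That spread could therefore be technical. The comparison asks how HFPO-TA, whose liver toxicity the study title names, changed the transcripts of these cells.

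Complement is a cascade of plasma proteins, most of them made by hepatocytes, that marks microbes and damaged cells for removal. Recognition proteins start it by the classical pathway (the C1 complex) or the lectin pathway (collectins with MASP proteases). All routes meet at C3, and the terminal components then assemble a pore in the target membrane. Soluble and membrane-bound regulators keep the cascade off host cells. In developing liver the recognition protein C1q comes mainly from macrophages and not from hepatocytes.

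The values were in TPM, a length-corrected transcript level that sums to about the same total in every library and keeps no sequencing depth, so the depth is unknown. Fetal hepatocyte transcripts dominated all 6 libraries, with AFP, the fetal serum protein, at 63150 to 66804 TPM with HFPO-TA and 71682 to 79063 TPM with DMSO. The pan-leukocyte gene PTPRC stood at 0.04 TPM or less in every library. Stromal transcripts were plentiful and uneven: the sum of 10 stromal markers was 2292, 1131 and 1121 TPM in HFPO-TA replicates 1, 2 and 3, and 2012, 1379 and 1571 TPM in DMSO replicates 1, 2 and 3. By this sum, to which COL3A1 gave the most, replicate 1 was the richest library of each group. PDGFRA, TAGLN and ACTA2 did not follow it in both groups. All 10 stromal markers had log2 fold changes below 0 with HFPO-TA (median -0.25), and 0 passed the test given below.

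Of the 35 complement genes 25 passed the filter of at least 1 TPM in 3 or more libraries and were tested together with all 15664 genes that passed it. A gene was called changed when limma gave a Benjamini-Hochberg adjusted p under 0.05 over all of these genes. MBL2 was called higher with HFPO-TA, 0 complement genes were called lower, and 24 tested members did not pass. Of all 15664 tested genes 0.492% were called: 0.185% were called higher and 0.306% lower. Before adjustment 5 members had p under 0.05, 2 higher and 3 lower, where 12% of all tested genes lay under it, 5.45% higher and 6.56% lower. The groups did not overlap for 5 of the 25 tested members, 2 higher and 3 lower, where 17.9% of all tested genes did not overlap, 8.55% higher and 9.4% lower. The median log2 fold change of the 25 was 0.01, and that of all tested genes was -0.01. A positive fold means a higher level with HFPO-TA. Folds were taken after adding 1 TPM to each value, so those of low genes are understated.

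**Figure D1:**
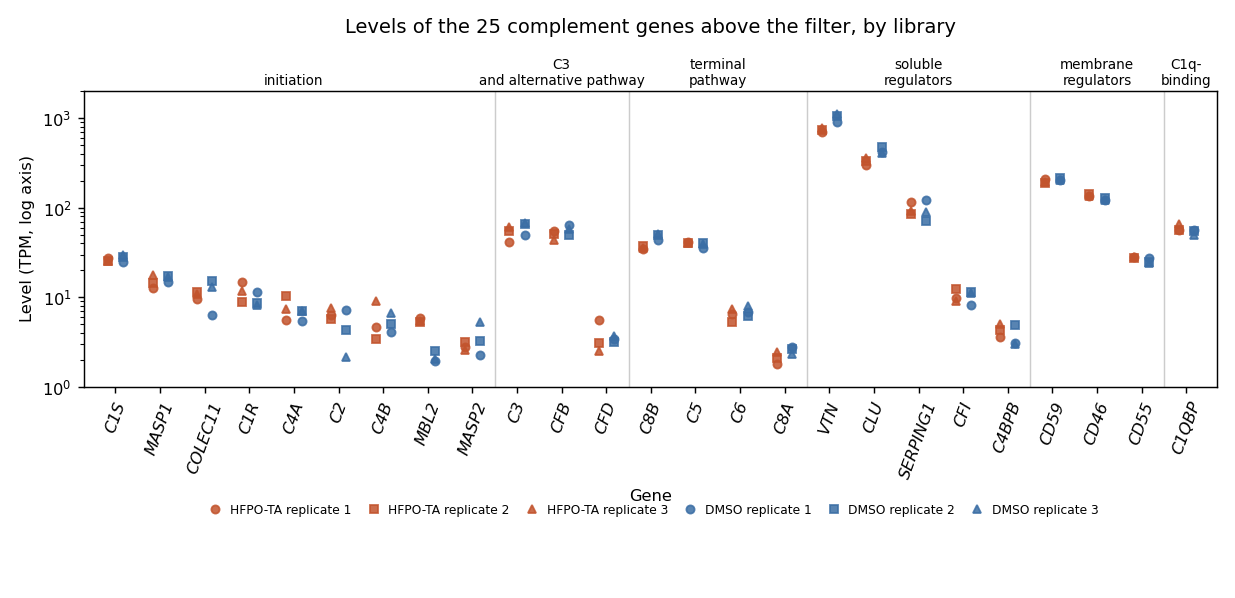
Levels of the 25 complement genes that passed the filter, in TPM on a log axis, with 1 point per library, HFPO-TA in orange and DMSO in blue, grouped by role. VTN is the most abundant member in every library, and MBL2 is the gene of the first group whose orange and blue points stand apart.

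MBL2, mannose-binding lectin, is a collectin made by hepatocytes that recognises sugars on microbes, and its transcript is known to respond to PPARA agonists in human hepatocytes. It stood at 5.83, 5.25 and 5.40 TPM with HFPO-TA, against 1.94, 2.50 and 2.06 TPM with DMSO. The lowest HFPO-TA library lay well above the highest DMSO library. Means were 5.49 ± 0.30 and 2.17 ± 0.29 TPM (SD, n = 3 each), a ratio of 2.54 (log2 fold change 1.04, SE 0.14, limma adjusted p = 0.0324). The rise kept its direction without any 1 library, but the call was lost without HFPO-TA replicate 2 (adjusted p = 0.13), HFPO-TA replicate 3 (0.143), DMSO replicate 1 (0.078), DMSO replicate 2 (0.0772) or DMSO replicate 3 (0.212), and kept without HFPO-TA replicate 1 (0.0318). Within replicates 2 and 3, which share a letter in their file names that replicate 1 lacks, the log2 fold change was 0.95 and the adjusted p 0.0601. In bulk samples such as these, more cells that make a transcript cannot be told apart from more transcript per cell, and the same holds for every change given here.

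In GENCODE 29 (GRCh38) MBL2 lies on chromosome 10 from 52765380 to 52771700 on the minus strand. No other annotated gene overlaps it, and no stretch of its longest transcript matched an annotated transcript of another gene at 97% identity. More diverged matches and unannotated sequence were not searched. The sequence around a RefSeq start of the gene is shown because MBL2 is the complement gene that was called; it is the window chr10:52771603-52771902 (GRCh38.p14), written on the gene's strand, with 250 bases before that start and 50 from it on. This RefSeq start, at 52771652, lies 48 bases inside the GENCODE gene. Capitals mark the motif GTTAAT, part of the HNF1 binding site, on either strand.
MBL2: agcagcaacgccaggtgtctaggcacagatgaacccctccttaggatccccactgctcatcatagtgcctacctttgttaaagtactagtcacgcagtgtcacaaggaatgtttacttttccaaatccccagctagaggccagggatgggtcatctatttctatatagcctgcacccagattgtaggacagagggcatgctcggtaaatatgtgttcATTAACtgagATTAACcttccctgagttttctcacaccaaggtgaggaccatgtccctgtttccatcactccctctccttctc
The motif began 33 and 23 bases before the RefSeq start, both times on the opposite strand, and so inside the GENCODE gene. Of the 35116 human promoter windows of this length 6.88% held it at least once. Among the 38 windows of complement members 5 held it (13.2%), those of C1R, C4BPA, C5, CFI and MBL2. HNF1 factors are hepatocyte transcription factors; the match describes letters and not binding.

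The partners of MBL2 in the lectin pathway did not pass. COLEC11, another collectin, stood at 9.61, 11.4 and 10.9 TPM with HFPO-TA and at 6.33, 15.1 and 13.1 TPM with DMSO, where replicate 1 was lowest in both groups. Its fold was -0.03 (SE 0.28, limma adjusted p = 0.979). MASP1 and MASP2 are serine proteases that travel with these collectins. MASP1 averaged 14.96 ± 2.46 and 16.3 ± 1.36 TPM and MASP2 2.86 ± 0.28 and 3.62 ± 1.58 TPM with HFPO-TA and DMSO (SD, n = 3 each). MASP2 overlaps an antisense transcript that averaged 5.55 TPM with HFPO-TA and 7.31 TPM with DMSO, and since the strand setting of the counting is not given here, its value is uncertain.

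In the classical pathway, C1R and C1S are the proteases of the C1 complex, and C1QA is a chain of its recognition protein. C1QA was listed at 0 in all 6 libraries, as were C1QB and C1QC, the other chains. C1R stood at 14.7, 8.91 and 11.7 TPM with HFPO-TA and at 11.4, 8.55 and 8.22 TPM with DMSO (log2 fold change 0.29, SE 0.19, limma adjusted p = 0.624). Its replicate 1 was highest in each group, as it was for the sum of the stromal markers, whose part in the value was not tested. C1S stood at 25.5 to 27.6 TPM with HFPO-TA and 24.98 to 29.3 TPM with DMSO (log2 fold change -0.06). C1S overlaps LPCAT3, transcribed the other way, whose mean was 98.3 TPM with HFPO-TA and 68.8 TPM with DMSO, and 25.4% of the longest C1R transcript matched C1RL, a paralog that overlaps it, so both values are uncertain.

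C2 and C4 form the enzyme that cuts C3. C2 averaged 6.55 ± 0.92 TPM with HFPO-TA and 4.56 ± 2.51 TPM with DMSO (SD, n = 3 each), where the DMSO libraries ran from 2.17 to 7.17 TPM, and its fold of 0.54 (SE 0.32, limma adjusted p = 0.567) lay within that spread. The fold was 0.19 without DMSO replicate 3 and 0.87 without DMSO replicate 1, and C2 passed in neither fit. An annotated gene, AL645922.1, shares 63.8% of the longest C2 transcript and 78.6% of that of CFB and averaged 2.42 TPM with HFPO-TA and 3.37 TPM with DMSO, so reads could be split between them. C4A and C4B are neighbouring copies of C4 in the major histocompatibility complex whose products prefer different chemical targets. C4A averaged 7.86 ± 2.42 and 6.55 ± 0.90 TPM, and C4B 5.77 ± 3.05 and 5.30 ± 1.35 TPM, with HFPO-TA and DMSO (SD, n = 3 each). Neither passed the test. Their summed level, which does not depend on how reads were split between them, was 10.4, 13.8 and 16.7 TPM with HFPO-TA and 9.61, 12.1 and 13.9 TPM with DMSO.

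How little separates the C4 copies is shown by their coding sequences, each 5232 bases long in GENCODE 29 and differing at 13 bases (99.8% identity). The stretch of 36 bases with the most differences lies on the plus strand at chr6:31996073-31996108 for C4A and chr6:32028811-32028846 for C4B (GRCh38). Capitals mark the 5 bases that differ.
C4A: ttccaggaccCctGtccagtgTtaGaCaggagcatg
C4B: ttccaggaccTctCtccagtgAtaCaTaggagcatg
A read that lies within the coding sequence and covers none of the 13 sites cannot be assigned to either gene by its sequence.

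C3, the protein on which all pathways converge, stood at 41.3, 54.3 and 60.2 TPM with HFPO-TA, against 49.2, 66.1 and 68.0 TPM with DMSO. Replicate 1 was the lowest in both groups, the groups overlapped, and C3 did not pass (log2 fold change -0.23, SE 0.17, limma adjusted p = 0.664). CFB, the protease of the alternative pathway, averaged 49.8 ± 5.39 and 57.5 ± 7.30 TPM with HFPO-TA and DMSO (SD, n = 3 each; -0.20, limma adjusted p = 0.555). CFD, the protease that activates CFB and is typical of adipocytes, stood at 2.49 to 5.56 TPM with HFPO-TA and 3.17 to 3.73 TPM with DMSO. CFP, properdin, which stabilises the C3-cutting enzyme and comes mainly from leukocytes, was below the filter at 0.35 TPM or less in every library.

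Among the 4 tested terminal components C8B had the lowest fold. C8B, the beta chain of C8, stood at 34.7, 37.3 and 35.1 TPM with HFPO-TA, against 43.0, 50.1 and 51.0 TPM with DMSO. The groups did not overlap, but C8B did not pass (log2 fold change -0.42, SE 0.09, limma adjusted p = 0.1). Of 16 other settings of the fit it passed in 1, where replicate 1 was given its own term (limma adjusted p = 0.045). In the other 15 it did not pass, with limma adjusted p up to 0.391. C8 needs 3 chains, and their transcripts were far from equal in level. C8A, 10988 bases from C8B on chromosome 1, averaged 2.12 ± 0.32 and 2.59 ± 0.23 TPM with HFPO-TA and DMSO (SD, n = 3 each), and C8G, on chromosome 9, lay below the filter at 0.90 TPM or less. C5, from which the terminal pathway starts, averaged 41.05 ± 0.59 and 38.5 ± 2.82 TPM, and C6, which joins it next, 6.45 ± 1.09 and 7.03 ± 0.90 TPM; neither passed. C9, which forms the ring of the pore, was listed at 0 in all 6 libraries. C7, which anchors the growing complex in the membrane, was listed at 0.01, 0.04 and 0.04 TPM with HFPO-TA and at 1.68, 0.10 and 0.08 TPM with DMSO. A single library, DMSO replicate 1, thus held nearly all of it, and C7 was below the filter.

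**Figure D2:**
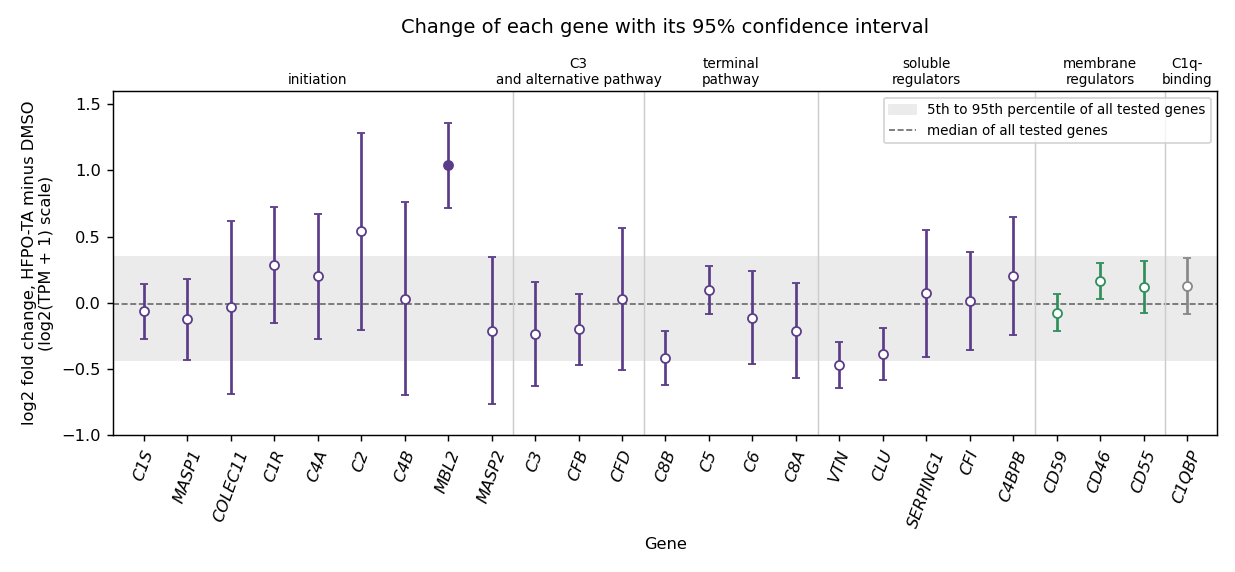
Log2 fold change of each tested complement gene (vertical axis, log2(TPM + 1) scale, positive where HFPO-TA was higher), with its 95% confidence interval from limma. Purple marks secreted, green membrane and grey the C1q-binding protein; the filled point is MBL2, which was called, and the grey band spans the 5th to 95th percentile of all tested genes.

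VTN and CLU are soluble regulators that block the terminal complex. VTN, vitronectin, also an adhesion protein, was the most abundant complement transcript and ranked 161 among all genes by its mean over the libraries. It stood at 699.9, 742.9 and 762.8 TPM with HFPO-TA, against 911.5, 1053 and 1094 TPM with DMSO. Every HFPO-TA library lay below every DMSO library. Means were 735.2 ± 32.2 and 1020 ± 95.8 TPM (SD, n = 3 each), a ratio of 0.721 (log2 fold change -0.47, SE 0.08). VTN missed the threshold, with a limma adjusted p of 0.0506 and rank 78 by p where 77 genes were called. It passed with replicates 2 and 3 alone (adjusted p = 0.0154), with the term for replicate 1 (0.0107), without HFPO-TA replicate 1 (0.0471) and without DMSO replicate 1 (0.0287), and it did not pass without HFPO-TA replicate 2 (0.177) or 3 (0.159) or DMSO replicate 2 (0.177) or 3 (0.247).

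VTN lies on chromosome 17 from 28367276 to 28373091 on the minus strand, inside SARM1, a gene of the other strand that averaged 4.16 TPM with HFPO-TA and 5.38 TPM with DMSO. The window chr17:28370258-28370557 (RefSeq, GRCh38.p14), on the strand of VTN and laid out in the same way, is shown because VTN had the smallest p among the members that were lower. Its RefSeq start, at 28370307, lies 2784 bases inside the longer GENCODE gene, so the window is not the sequence before the GENCODE start. Capitals mark matches on either strand to AGGTCA (a nuclear receptor motif), TTGCNNAA (a C/EBP motif) and TTCNNNGAA (a STAT motif).
VTN: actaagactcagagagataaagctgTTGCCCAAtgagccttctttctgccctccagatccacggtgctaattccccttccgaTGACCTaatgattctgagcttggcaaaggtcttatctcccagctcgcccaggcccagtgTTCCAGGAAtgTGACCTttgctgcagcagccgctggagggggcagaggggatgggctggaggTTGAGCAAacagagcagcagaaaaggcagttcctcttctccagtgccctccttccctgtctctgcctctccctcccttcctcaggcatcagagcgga
The nuclear receptor motif began 168 and 98 bases before the RefSeq start, the C/EBP motif at 225 and 47, and the STAT motif at 109, with no overlap between them. Of all 35116 windows 13.8% held the nuclear receptor motif, 10.5% the C/EBP motif and 7.66% the STAT motif. Of the 38 windows of complement members 26.3%, 26.3% and 31.6% held them, so these motifs were not particular to VTN. The MBL2 window shown above held none of these 3 motifs. Another RefSeq window of MBL2, further upstream, held 2 C/EBP matches and 1 STAT match but no GTTAAT.

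CLU, clusterin, an extracellular chaperone, stood at 297.8, 332.7 and 355.5 TPM with HFPO-TA, against 413.9, 470.3 and 403.5 TPM with DMSO. The groups did not overlap, and CLU did not pass (log2 fold change -0.38, SE 0.08, limma adjusted p = 0.115). SERPING1, the C1 inhibitor, which shuts off C1R, C1S and the MASPs, stood at 115.3, 84.9 and 91.5 TPM with HFPO-TA, against 121.03, 70.8 and 89.5 TPM with DMSO. Replicate 1 was the highest in both groups, as for the sum of the stromal markers, whose part was not tested, and the fold was 0.07 (SE 0.20, limma adjusted p = 0.929). CFI, the protease that degrades C3b and C4b, averaged 10.4 ± 1.70 and 10.3 ± 1.77 TPM with HFPO-TA and DMSO (SD, n = 3 each). An overlapping gene model, AC126283.2, shares 72.4% of its transcript, so its value is uncertain.

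The remaining soluble regulators were low. C4BPB, the beta chain of the C4b-binding protein, stood at 3.61 to 5 TPM with HFPO-TA and 3.04 to 4.89 TPM with DMSO. C4BPA, its alpha chain and in adult plasma the major one, lay below the filter at 0.04 to 0.49 TPM with HFPO-TA and 0.07 to 0.54 TPM with DMSO. The factor H-related genes were near 0: CFHR4 was listed at 0 in all 6 libraries, CFHR5 and CFHR2 reached at most 0.03 and 0.29 TPM, and CFHR3 was listed at 0.15, 0.26 and 0.14 TPM with HFPO-TA and at 0 in the 3 DMSO libraries. CFHR2, CFHR3 and CFHR4 share sequence with other genes of the family, so their values are uncertain.

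Membrane regulators sit on the cell that makes them. CD46, the cofactor for cleavage of C3b on the cell surface, stood at 135.7, 143.6 and 135.1 TPM with HFPO-TA, against 120.3, 128.1 and 121.3 TPM with DMSO. The groups did not overlap but CD46 did not pass (log2 fold change 0.16, SE 0.06, limma adjusted p = 0.324). CD55, decay-accelerating factor, stood at 27.9, 27.5 and 28.0 TPM with HFPO-TA and at 27.7, 24.9 and 23.9 TPM with DMSO (0.12, SE 0.08, limma adjusted p = 0.641). CD59, which blocks the insertion of C9, stood at 208.1, 189.7 and 192.9 TPM with HFPO-TA, against 201.3, 215.1 and 205.2 TPM with DMSO (-0.07, SE 0.06, limma adjusted p = 0.701). CD55 and CD59 overlapped between the groups. C1QBP, which binds C1q at the cell surface but resides mainly in mitochondria, averaged 59.2 ± 5.39 and 53.98 ± 4.03 TPM with HFPO-TA and DMSO (SD, n = 3 each) and did not pass.

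**Figure D3:**
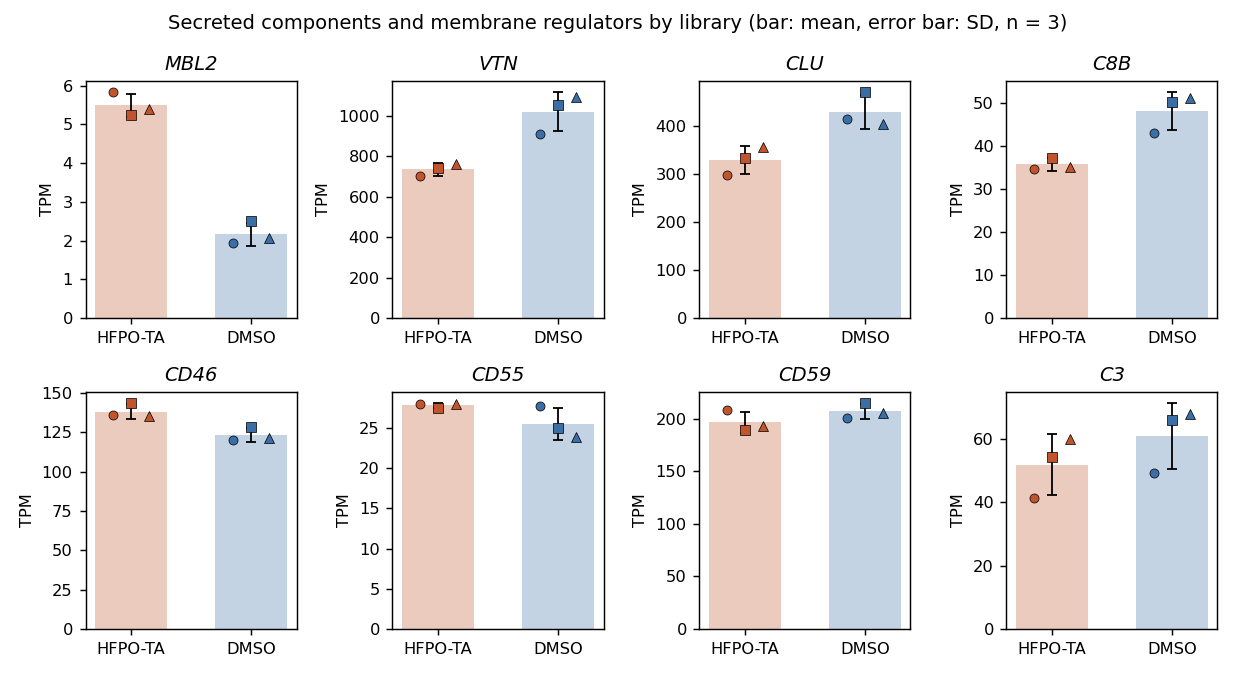
Levels in TPM of 5 secreted components (MBL2, VTN, CLU, C8B, C3) and the 3 membrane regulators, with HFPO-TA left of DMSO. Points are libraries (circle, square and triangle for replicates 1, 2 and 3), bars are means and error bars are SD of 3 libraries; MBL2, VTN, CLU, C8B and CD46 do not overlap between the groups.

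Secreted components and membrane regulators were then set side by side. Of the 31 secreted genes 21 were tested, with 10 folds above 0 and 11 below, a median log2 fold change of -0.03 and a range of -0.47 to 1.04. The 3 membrane regulators had 2 folds above 0 and 1 below and a median of 0.12, beside -0.01 over all tested genes. In summed TPM the secreted genes reached 1403, 1461 and 1516 with HFPO-TA, against 1744, 1922 and 1924 with DMSO. The membrane regulators reached 371.7, 360.7 and 356.0 TPM with HFPO-TA, against 349.3, 368.2 and 350.5 TPM with DMSO. The ratio of secreted to membrane sums was 3.78, 4.05 and 4.26 with HFPO-TA, against 4.99, 5.22 and 5.49 with DMSO, so the groups did not overlap in it. VTN and CLU alone made up 71.1% to 73.8% of the secreted sum with HFPO-TA and 76.0% to 79.3% with DMSO. Without those 2 genes the secreted sum was 405.6, 385.4 and 397.8 TPM with HFPO-TA, against 419.01, 397.7 and 426.6 TPM with DMSO, and the groups overlapped. These sums describe the genes chosen and were given no test.

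**Figure D4:**
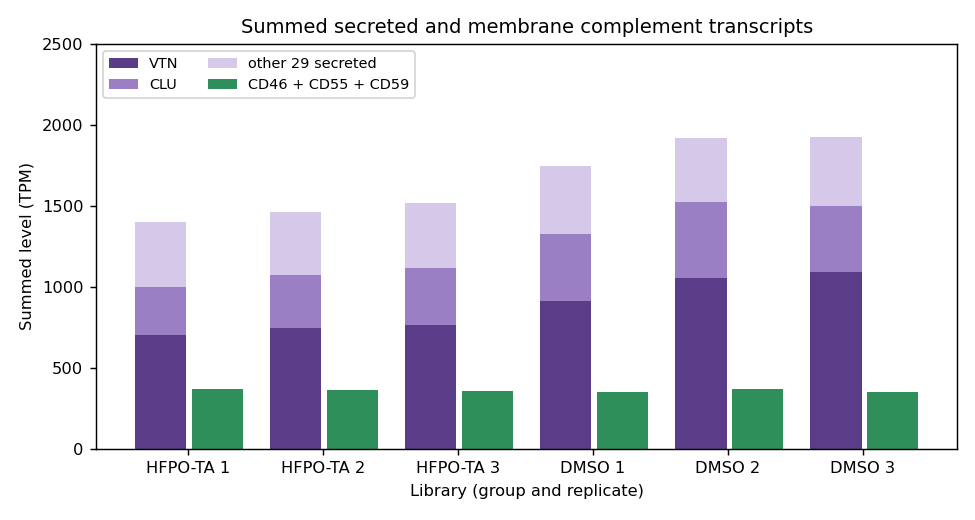
Summed levels in TPM for each library, HFPO-TA libraries left of DMSO libraries; the purple bar stacks VTN, CLU and the other 29 secreted genes, and the green bar is the sum of CD46, CD55 and CD59. The purple bars reach 1403 to 1516 TPM with HFPO-TA and 1744 to 1924 TPM with DMSO, and the green bars 356.0 to 371.7 and 349.3 to 368.2 TPM.

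Hepatocyte markers are set beside the lower secreted genes. Of 8 such markers tested 0 were called, and 5 were lower without overlap between the groups, where 9.4% of all tested genes were. SERPINA1 was below 0 with overlap, and APOA1 and TF had folds of 0.058 and 0.065. Their summed level, most of it AFP, was 94636 to 102740 TPM with HFPO-TA and 105080 to 116310 TPM with DMSO, a ratio of 0.883. The 5 lower markers without overlap were ALB, HNF4A, TTR, AFP and APOB, with ratios of 0.573, 0.780, 0.833, 0.849 and 0.879. The ratios of VTN and CLU were 0.721 and 0.766, so that of ALB was lower than either. The part of the hepatocyte markers in the values of VTN, CLU and C8B was not tested.

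The spread between replicates followed replicate number in several members. Replicate 1 was the highest library of both groups for C1R, CFB and SERPING1, 3 of the 25 tested members, against 29.7% of all tested genes. It was the lowest of both groups for C3, C4A, C8B, COLEC11, MASP1 and VTN, 6 of the 25, against 9.1% of all tested genes. For SERPING1, C1R and COLEC11 the gap between replicates of a group was larger than the difference between the group means.

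**Figure D5:**
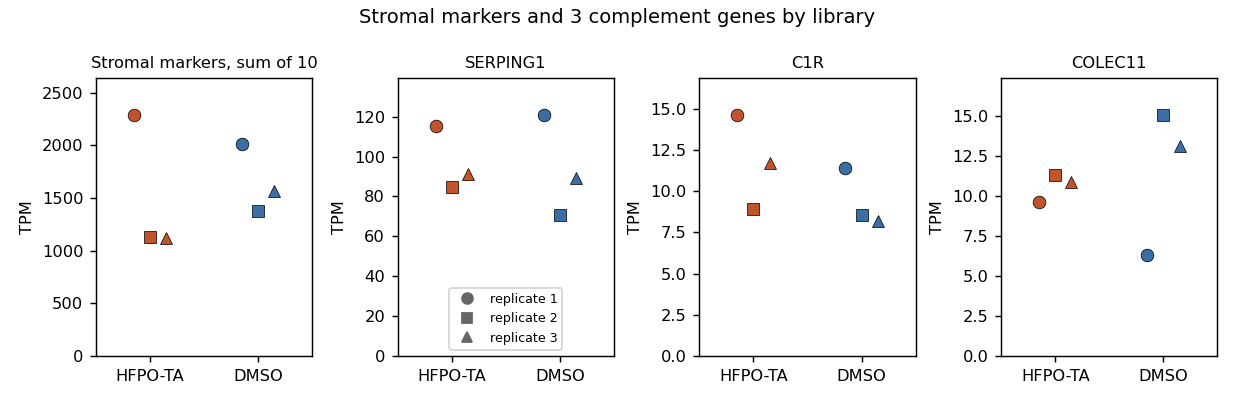
Levels in TPM by library of the sum of 10 stromal markers, SERPING1, C1R and COLEC11, HFPO-TA left of DMSO, with circle, square and triangle for replicates 1, 2 and 3. The circle is the highest of each group for the stromal sum, SERPING1 and C1R and the lowest for COLEC11.

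Position was not used in choosing the genes. In GENCODE 29, 12 of the 35 lie on chromosome 1, 4 on chromosome 6 and 3 on chromosome 5. CD46 and CD55, 365252 bases apart, stood above 20 TPM in every library, while C4BPA, 176403 bases from CD55, stood under 1 TPM.

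Other genes of the system gave 0 called genes with limma. Of 20 further complement genes 5 passed the filter, all with folds below 0 and a median of -0.29; 2 had an unadjusted p under 0.05. They were C1RL, a C1R-like protease (26.8, 27.03 and 31.2 TPM with HFPO-TA, against 31.4, 40.01 and 38.3 TPM with DMSO, limma adjusted p = 0.255), and CPN1, a subunit of the carboxypeptidase that inactivates anaphylatoxins (6.64, 6.41 and 6.99 TPM with HFPO-TA, against 8.22, 8.11 and 10.8 TPM with DMSO, limma adjusted p = 0.313). The anaphylatoxin receptors C3AR1, C5AR1 and C5AR2 were below the filter, and C1QB, C1QC, FCN1, FCN2 and VSIG4 were listed at 0 throughout. Of 11 myeloid markers 6 passed the filter and 0 were called. The highest, CD68, a lysosomal protein that other cells also make, stood at 42.6 to 56.03 TPM with HFPO-TA and 43.5 to 47.7 TPM with DMSO. The others that passed were CSF1R, AIF1, FCER1G, CD163 and LYZ. They averaged 5.71, 6.55, 2.51, 1.42 and 0.91 TPM with HFPO-TA and 7.13, 6.63, 2.61, 1.94 and 0.87 TPM with DMSO. CD5L and MARCO reached at most 0.04 and 0.26 TPM. CD14 and TYROBP, also below the filter, were highest in HFPO-TA replicate 3, at 1.64 and 1.21 TPM. In the other libraries they reached at most 0.47 and 0.31 TPM. Of 7 endothelial markers 5 passed the filter and 0 were called, with 1 fold above 0 and 4 below; the highest, KDR, stood at 22.5 to 46.7 TPM with HFPO-TA and 24.95 to 39.4 TPM with DMSO. EMCN, chosen here after its values were seen, was higher without overlap, at 1.80 to 2.98 TPM with HFPO-TA and 0.80 to 1.28 TPM with DMSO (limma adjusted p = 0.165).

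Of 18 genes of the cytokine signalling that raises complement transcripts in hepatocytes all passed the filter and 0 were called; 4 had an unadjusted p under 0.05, all higher. The median log2 fold change was 0.05, and 6 were higher without overlap, beside 8.55% of all tested genes. CEBPB, a transcription factor of the acute phase response, stood at 23.6, 26.7 and 41.9 TPM with HFPO-TA, against 21.5, 14.4 and 15.2 TPM with DMSO (limma adjusted p = 0.24), and IFNGR1, a chain of the interferon gamma receptor, at 70.3 to 75.6 TPM with HFPO-TA and 57.4 to 67.7 TPM with DMSO (limma adjusted p = 0.324). CEBPD, IFNGR2 and TNFRSF1A had folds of 0.34, 0.16 and 0.16 and did not pass. IL6R, IL6ST, JAK1, STAT3 and RELA, which carry interleukin 6 and NF-kB signals, had folds between -0.01 and 0.07.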

How the data were processed

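Gene-level values of 6 libraries were used, 3 HFPO-TA and 3 DMSO. The deposited columns are headed FPKM, but each sums to 995690 to 996190, so they were treated as TPM made by the authors. Per the submitters' processing notes the build was GRCh38.p13 and the tools RSEM, Bowtie2 and HISAT, with neither roles nor versions; annotation and strand setting: not given in the sources used here. The filter was 1 TPM or more in no fewer than 3 libraries, which 15664 genes passed. limma 3.58.1 (R 4.3.3) was fitted to log2(TPM + 1) with treatment as the only term and a trended, robust variance, 2-sided, adjusted over all genes. On data simulated for HFPO-TA against DMSO over 15664 genes with 200 changed in each of 10 runs, it recovered 30.7%, 79.1% and 96.1% of changes of 0.5, 1 and 2 on the log2 scale, and 3.86% of calls were false. Changes were placed only in genes above about 5 TPM, and noise was drawn independently for each library. These rates therefore do not cover genes as low as MBL2, nor a spread shared by replicate 1 of both groups. The members, gene lists and motifs were chosen with earlier results of these data known. All members were to be named; of the other complement and cytokine lists, called genes, the 2 with the smallest p and those above 20 TPM, of which 1 is not reported here. Positions came from GENCODE 29, in which all 35 members were found, promoters from RefSeq (24 of 35 members), and shared transcript sequence from blastn 2.17.0. Figures: matplotlib 3.10.9.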

Additional observations from a re-analysis of the deposited data

How the results depend on the processing

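The whole table gave 77 changed genes, and the count was 10 without a filter on low values, 130 with at least 5 TPM, 11 without trend or robust variance, 207 with a term parting replicate 1 from 2 and 3, 222 with replicates 2 and 3 alone, 29 after median-of-ratios scaling and 17 after upper-quartile scaling. Of the genes called 52.9% were higher after upper-quartile scaling, 60% without a filter and 72.7% without trend or robust variance, against 37.7%. Leaving out 1 library gave 6 to 291, of which 25.5% (without DMSO replicate 1) to 100% (without HFPO-TA replicate 2 or DMSO replicate 3) were higher. Complement members called numbered 0 without a filter and with upper-quartile scaling, 2 with at least 5 TPM (1 lower), 3 with the term for replicate 1 (2 lower), and 0 to 2 without 1 library (0 to 1 higher, 0 to 1 lower). With replicates 2 and 3 alone 0 were higher and 1, VTN, was lower. MBL2, at 1.94 to 2.50 TPM with DMSO, passed the filter of at least 5 TPM only through its HFPO-TA libraries. Its call in that setting (limma adjusted p = 0.0242) therefore adds no support. Across the 16 settings MBL2 had folds of 0.95 to 1.31 and lost its call in 9, with adjusted p of 0.121 without a filter and 0.0504 with upper-quartile scaling; VTN had folds of -0.55 to -0.41 and gained one in 6. The secreted median ran from -0.12 to 0.057 and the membrane median from 0.079 to 0.15 without 1 library. The cause of these shifts was not tested; fits without a library hold fewer samples, and the filters change how many genes are tested.

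Whether replicate numbers pair the samples was not settled. Deviations of same-numbered libraries correlated at 0.184, 0.123 and 0.028 for replicates 1, 2 and 3. For HFPO-TA replicates 1 and 2 the same-numbered DMSO library was the best match, while HFPO-TA replicate 3 correlated best with DMSO replicate 2 (0.068). A replicate block left 30 changed genes; MBL2 was not called (adjusted p = 0.0769) and VTN was (0.041), so 0 members were higher and 1 lower.

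Signs turned only for members that were not called. With replicates 2 and 3 alone C4B, CFD and CFI stood at -0.033, -0.23 and -0.10. Without HFPO-TA replicate 1, CFD, SERPING1 and COLEC11 stood at -0.24, -0.05 and 0.03. Without HFPO-TA replicate 2, C4A, C6 and CFI stood at -0.0012, 0.0028 and -0.10, and without HFPO-TA replicate 3 C4B at -0.31. Without DMSO replicate 1, C4B and CFI stood at -0.11 and -0.12. Without DMSO replicate 2, CFD, SERPING1 and COLEC11 stood at -0.02, -0.11 and 0.19, and without DMSO replicate 3 MASP2 and COLEC11 at 0.049 and 0.09. The far ends of these ranges without 1 library were 0.39 for C4A, 0.30 for C4B, -0.21 for C6, 0.22 for CFD, 0.10 for CFI, -0.43 for MASP2, 0.27 for SERPING1 and -0.38 for COLEC11. Without 1 library the fold of C3 ran from -0.38 (DMSO replicate 1) to -0.08 (HFPO-TA replicate 1) and that of C1R from 0.13 (HFPO-TA replicate 1) to 0.46 (HFPO-TA replicate 2); neither passed. TPM keeps no depth, so count-based precision could not be given.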
